A study of Mus musculus with 2 samples.

Results

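The 4 JAK kinase genes (Jak1, Jak2, Jak3 and Tyk2) and 5 STAT transcription factor genes (Stat2, Stat3, Stat5a, Stat5b and Stat6) were followed in spinal cord microglia of mice with an atopic diathesis model and of control mice. They were found by the gene name of each probe in both scanner files, which gave 14 probes for 9 genes, out of 55681 probes and 35019 gene names on the array; other STAT genes are not analysed here. RNA of the sorted microglia, the macrophages resident in brain and spinal cord, was measured on 1 array for atopic diathesis and 1 array for control, both 1-colour Agilent mouse arrays labelled with Cy3. In the titles the atopic diathesis microglia are termed activated and the control microglia normal, while strain, age, sex, number of animals and the way the model was made are not given in the sources used here. With 1 array per group there was no test and no replicate check, and every difference describes this pair of samples.

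JAK kinases sit on the inner tails of cytokine receptors. When a cytokine draws the receptor chains together, the kinases phosphorylate each other, the receptor and the STAT proteins docked on it, and the STATs then pair up, enter the nucleus and bind DNA. Each receptor uses its own set: type I interferons act through Jak1 and Tyk2 on Stat2, interleukin-6 and interleukin-10 act mainly on Stat3, the granulocyte-macrophage colony-stimulating factor acts through Jak2 on Stat5a and Stat5b, and the allergic cytokines interleukin-4 and interleukin-13 act on Stat6. In microglia these routes shape the response to cytokines from other cells. The arrays measured RNA, so they do not show whether any kinase or STAT protein was phosphorylated.

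Of the 9 genes, 7 were detected on both arrays, by at least 1 probe well above background on each, and are called measured. Among them Stat5a and Stat3 read at least 2-fold higher in atopic diathesis microglia and Stat5b at least 2-fold lower, whereas Jak1, Jak2, Stat2 and Stat6 lay within 2-fold. Tyk2 was detected on the control array only, and Jak3 on neither array. All log2 differences are atopic diathesis minus control and are set against the median measured gene, whose own raw difference was -0.03. Where no size is given, "higher" and "lower" stand for 2-fold or more on that scale. That 3 of 7 lay past 2-fold is to be read against 32.9% of all 9217 measured genes (17.3% higher and 15.6% lower), so the share among so few members is near the background. The median log2 difference of the 7 members was 0.44, against 0 over all measured genes. On the log2 scale, repeated spots of 1 probe gave a 95% interval of ±0.40 for a difference between single spots. It covers spot error only and leaves out animals, sorts and RNA amplification. The interval is pooled over 101 probes and takes no account of signal level, so it is only a rough guide for a single probe. For the Stat3 probe printed 10 times, the spot SD was smaller than the pooled one, 0.03 in atopic diathesis and 0.07 in control.

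**Figure D1:**
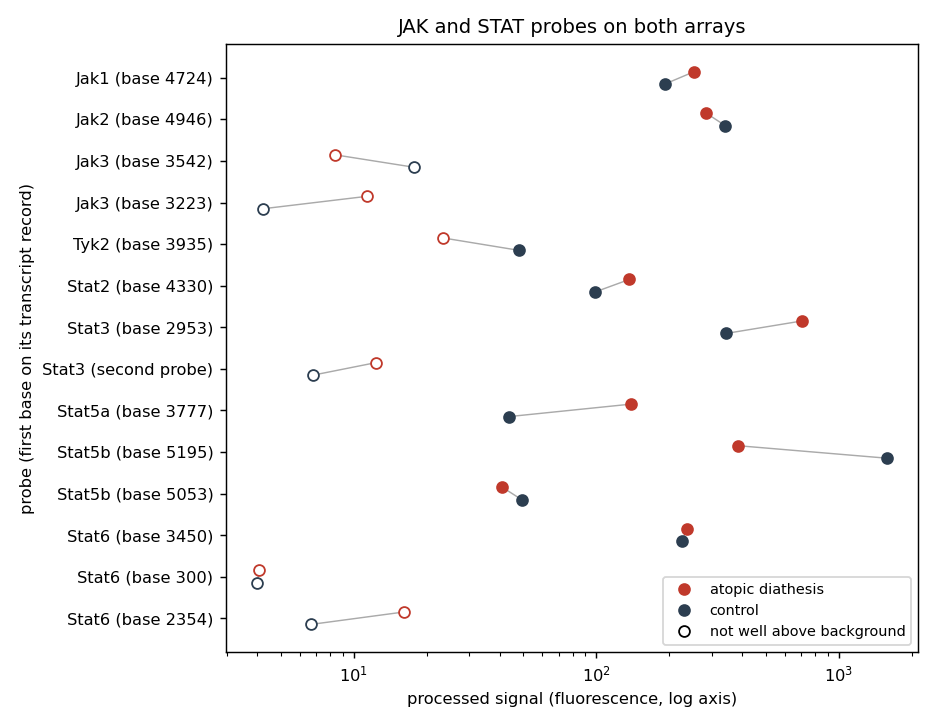
Processed signal (log axis) of each of the 14 probes on the atopic diathesis array (red, upper point) and the control array (dark, lower point), with open points where the probe was not well above background. The probe of Stat5a and the repeated Stat3 probe lie to the right on the atopic diathesis array, and the Stat5b probe at base 5195 lies to the left.

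Among the kinases, Jak1 and Jak2 were close to the median gene. Jak1, which serves interferon, gp130 and common gamma chain receptors, had a signal of 254 on the atopic diathesis array, against 192 on the control array. Its log2 difference of 0.44 was slightly wider than the spot interval. The probe lies on chromosome 4 at 100825094 to 100825153 (mm9, minus strand) and starts at base 4724 of its transcript record. Jak2, the kinase of the granulocyte-macrophage colony-stimulating factor and erythropoietin receptors and a partner of Jak1 at the interferon gamma receptor, read 284 in atopic diathesis and 340.5 in control microglia. Its log2 difference of -0.23 lay within the spot interval. The Jak2 probe (chromosome 19, 29387487 to 29387546, plus strand) starts at base 4946.

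Tyk2, the kinase that pairs with Jak1 at the type I interferon and interleukin-10 receptors, had a signal of 23.3 on the atopic diathesis array, where it was not well above background, and of 48.0 on the control array. Its bound was 2.02-fold lower in atopic diathesis microglia. The probe's own signal there exceeded the lowest signal that counted as well above background, 19.9. The bound is therefore the observed ratio of the 2 signals, set against the median gene, and spot error could make the true fold smaller. The control signal was itself near that limit, which was 19.8 on the control array. With other background treatments the bound stood at 1.33-fold (normexp) and 1.23-fold (uncorrected signals), and with scaling to the 75th percentile of detected probes at 1.90-fold. The Tyk2 probe starts at base 3935 of its transcript record (chromosome 9, 20909321 to 20909380, minus strand).

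Jak3 works with the common gamma chain and is best known from lymphocytes. Neither of its probes was detected on either array, so no fold is given. The probe at base 3223 read 11.3 in atopic diathesis and 4.21 in control microglia, and the probe at base 3542 read 8.35 in atopic diathesis and 17.7 in control microglia. The raw signals of these probes thus went opposite ways, at levels where they were not told from background. The later probe also carries an accession of another gene, Insl3, which overlaps the end of Jak3 in the RefSeq table, so a signal on it would not be of Jak3 alone. The sequence of the earlier probe and the last 30 bases of the later one are given to show which stretches the statement on Jak3 rests on:
Jak3 probe at base 3223: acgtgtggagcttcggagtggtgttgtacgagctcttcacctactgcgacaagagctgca
Jak3 probe at base 3542, last 30 bases: ctggtggccgacgtggacccagcgctagac

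Stat3, the factor of interleukin-6 and interleukin-10 signalling, was higher in atopic diathesis microglia on a probe printed 10 times per array. The 10 spots ranged between 680 and 723 with a median of 702 on the atopic diathesis array, against 318 to 371 with a median of 343 on the control array. All spots of the atopic diathesis array were brighter than all spots of the control array, the lowest being 1.84 times the highest. The log2 difference was 1.07, with a 95% interval of 1.03 to 1.12 from the spread among its own spots, or 2.10-fold. These spots share 1 RNA sample per group, so the interval says nothing of the spread between animals. Of all measured genes, 1504 had a higher log2 difference than Stat3. Its value lay just past 2-fold and was under it with normexp (0.94), uncorrected signals (0.89), no background filter (0.98) and scaling to the 75th percentile of all probes (0.57).

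**Figure D2:**
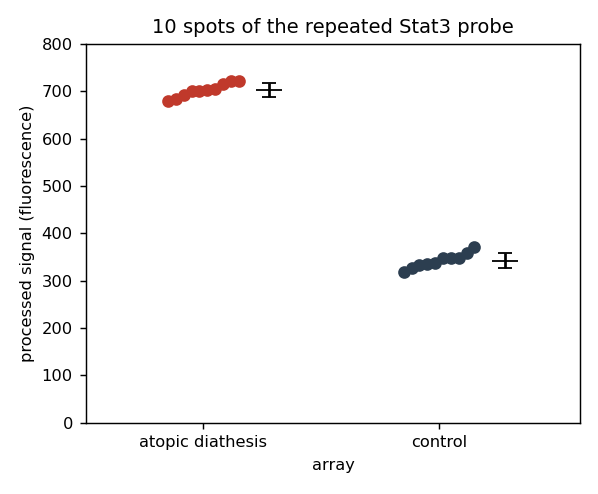
Processed signal of the 10 spots of the repeated Stat3 probe on each array, sorted by value from left to right, with the mean and SD over spots in black beside them. The atopic diathesis spots lie at 703 ± 14.5 and the control spots at 342 ± 15.6, with no overlap; the spots are repeats on 1 array, not animals.

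A second Stat3 probe was detected on neither array, with signals of 12.4 in atopic diathesis and 6.82 in control microglia. The value of the gene therefore rests on the repeated probe alone, which starts at base 2953 of its transcript record. In mm9 the repeated probe spans 100749598 to 100749657 on the minus strand of chromosome 11, and its last 30 bases are printed to show the stretch that the Stat3 value rests on:
Stat3 probe at base 2953, last 30 bases: actcctggctctgcactttcaaccttgcta

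Stat5a, one of a pair of closely related factors downstream of Jak2 and Jak3, had the largest difference upward among the members. Its single probe read 139 on the atopic diathesis array and 43.5 on the control array, both well above background. The log2 difference was 1.70, or 3.26-fold, and 805 measured genes had a higher one. With normexp it was 0.99 and with uncorrected signals 0.88, both under the 2-fold limit, which was passed in 9 of 11 alternatives. Not all of these could move it. With a single probe detected on both arrays, the 2 looser background filters and the choice of the brightest probe left the value unchanged. Keeping outlier spots also left it at 1.70. Quantile normalization and the deposited series table gave nearly the same value, 1.34 and 1.33, and hardly count as separate alternatives. On the plus strand of chromosome 11 the probe spans 100746373 to 100746432, 3166 bases from the repeated Stat3 probe, which lies on the other strand. Its last 30 bases are shown for comparison with the Stat5b probes:
Stat5a probe at base 3777, last 30 bases: atattttgtacatagaactcaacatttatg

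Stat5b, the partner gene of Stat5a, read lower, but its probes were far apart. The probe at base 5195 had a signal of 386 in atopic diathesis and 1581 in control microglia, a log2 difference of -2.002 and 4.01-fold lower. The probe at base 5053 had 41.0 in atopic diathesis and 49.3 in control microglia, a log2 difference of -0.23, which lay within the spot interval. Both probes were well above background on both arrays and both had a negative difference, but only the first lay past 2-fold. Their mean, -1.12, is the value of the gene, and 1257 measured genes had a lower one. With normexp the gene read -0.87, with uncorrected signals -0.87, and on the brighter probe alone -2.002.

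The starts of the Stat5b probes lie 142 bases apart on the minus strand of chromosome 11, at 100642045 to 100642104 and at 100642187 to 100642246. A 1.77 gap between their log2 differences was exceeded by 306 of the 1467 genes with at least 2 measured probes (20.9%), for which the median range between probes was 0.70. The Stat5b probes thus disagreed more than those of most such genes, though a gap of this size was not rare on these arrays. The bright probe holds the letters AATAAA, the usual polyadenylation signal, and the dim one does not. In the sequences below the capitals mark AATAAA, and the Stat2 and Jak2 probes that also hold it are set beside:
Stat5b probe at base 5195, 30 bases: attttatgttacAATAAAggcgtctccttg
Stat5b probe at base 5053, last 30 bases: acaacggaaaatatccttttataatttttc
Stat2 probe at base 4330, 30 bases: agtccttcgtacgtcatAATAAActtttgt
Jak2 probe at base 4946, 30 bases: tgtcatgtcaaaAATAAAacaagatttttg

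AATAAA, searched on the probe strand only, occurs in these 3 of the 14 member probes and in 10.1% of all probes on the array. The other 2 genes whose probe holds it, Stat2 and Jak2, had log2 differences of 0.50 and -0.23. The Jak2 value lay within the spot interval. As values of other genes, these differences say nothing of a gap between 2 probes of 1 gene. Whether the letters bear on the gap between the Stat5b probes was not tested.

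**Figure D3:**
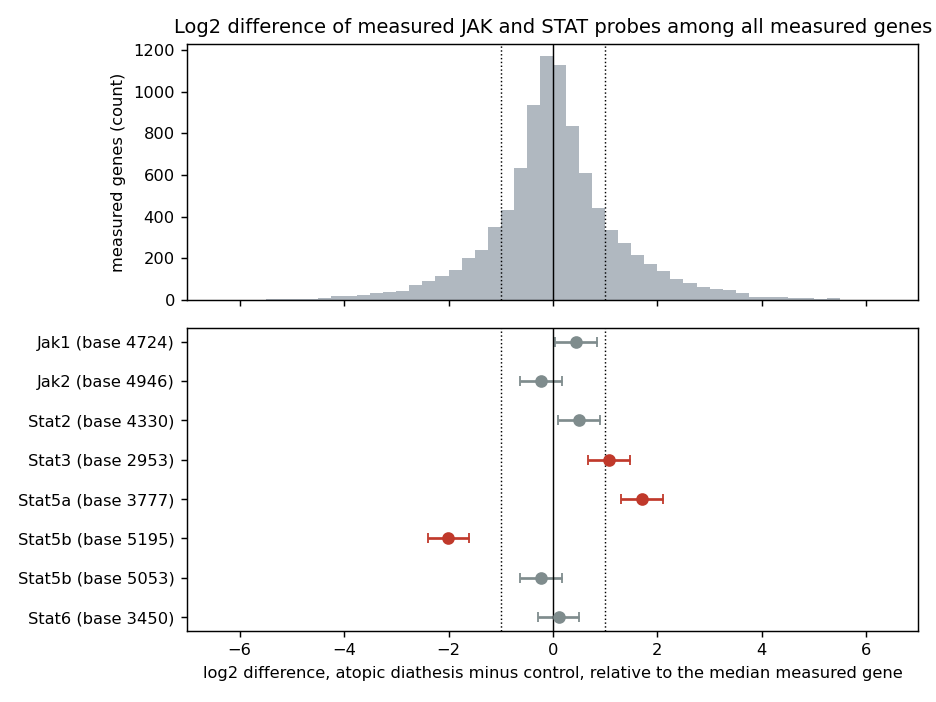
Upper panel, number of measured genes by log2 difference (atopic diathesis minus control, relative to the median measured gene). Lower panel, the 8 member probes well above background on both arrays, with bars for the ±0.40 spot interval and dotted lines at 2-fold. Red points, past 2-fold, are Stat3 at 1.07, Stat5a at 1.70 and the Stat5b probe at base 5195 at -2.002, and the other probes lie between the dotted lines.

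Stat2 and Stat6 were within 2-fold. Stat2, which forms the interferon-driven complex with Irf9, read 137 in atopic diathesis and 99.02 in control microglia. Its log2 difference of 0.50 was wider than the spot interval but became 0.22 after quantile normalization and 0.00 on the scale of the 75th percentile of all probes. It is probed at 127729834 to 127729893 on chromosome 10, plus strand. Stat6, the factor of interleukin-4 and interleukin-13, read 237 in atopic diathesis and 225 in control microglia on its probe at base 3450. That log2 difference of 0.11 lay within the spot interval, and its sign turned in 3 of 11 alternatives, while with uncorrected signals it was 0.

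The other 2 Stat6 probes were detected on neither array. The probe at base 2354 read 16.1 in atopic diathesis and 6.64 in control microglia, and the probe at base 300 read 4.06 in atopic diathesis and 4.004 in control microglia. The 3 Stat6 probes lie on chromosome 10, plus strand, at 127083983 to 127084042, 127095694 to 127095753 and 127097689 to 127097748. The detected probe was the one that starts farthest along the transcript record, and the earliest probe is printed with the end of the detected one:
Stat6 probe at base 300: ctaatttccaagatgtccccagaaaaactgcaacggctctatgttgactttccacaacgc
Stat6 probe at base 3450, last 30 bases: caacccagtatcatttggggagtaactatg

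This position of the detected probe was also the more frequent one on the whole array. Of 720 transcript records with 2 probes, 1 above background on both arrays and 1 on neither, the detected probe was the one farther toward the 3′ end in 488 (67.8%). What sets this position was not tested. All 8 member probes detected on both arrays start at base 2953 or later, and the Stat6 and Jak3 probes detected on neither start at bases 300, 2354, 3223 and 3542.

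The promoters of all 9 genes were read from RefSeq (build GRCm38.p6), as 11 windows of 250 bases before and 50 after a gene start, and searched for the short DNA elements that STATs bind. The STAT element, TTC and GAA with 3 bases between them, was in none of the 11 windows and in 8.30% of 32851 promoters. The wider form with 4 bases between them, which Stat6 is known to prefer, was in 1 window, that of Stat2, and in 6.95% of promoters. The interferon response core, TTTC and TTTC with 2 bases between them, was likewise in the Stat2 window and in 3.44% of promoters, both strands searched in each case. In the stretch below, capitals mark the interferon core, from 222 bases before the start, and then the wider STAT element, from 210 bases before it; they do not overlap. A match of letters is a description and not a binding site.
Stat2 promoter, chr10:128270264-128270309, plus strand: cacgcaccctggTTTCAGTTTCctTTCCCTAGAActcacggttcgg

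Around the members, 144 genes of the pathway were set in 8 lists, of which 57 were measured, 8 of them higher and 13 lower. The share past 2-fold was 36.8%, against 32.9% of all measured genes, with a median log2 difference of 0.06. With scaling to the 75th percentile of all probes the lists split into 5 higher and 22 lower, and over all genes 989 higher and 2503 lower in place of 1596 and 1436. A further 12 list genes were detected in atopic diathesis microglia only, 8 in control microglia only and 66 in neither, and 1, Socs6, was detected in both but on different probes. Over the whole array, 2821 genes were detected in atopic diathesis only and 1448 in control only. Detection on 1 array thus leaned toward atopic diathesis in general, and the counts in the single lists below are to be read against that. Some genes stand in 2 lists.

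Cytokine receptor chains lay on both sides, with 4 of 21 measured genes higher, 2 lower and a median of 0.27. Both chains of the interferon gamma receptor were higher, Ifngr1 with 6632 in atopic diathesis and 2979 in control microglia (log2 difference 1.19) and Ifngr2 with 12346 in atopic diathesis and 5682 in control microglia (1.15). So were Il10ra, the ligand-binding chain for interleukin-10 (353 in atopic diathesis and 127 in control, 1.51), and Il6ra, that for interleukin-6 (1.05). Il6st, the gp130 chain that Il6ra needs for signalling, went the other way, with 1027 in atopic diathesis and 3391 in control microglia (-1.69), as did Csf2rb (-1.40). Receptor chains that feed the same STAT therefore did not share a direction, since Il6ra, Il10ra and Il6st all lead to Stat3. Of chains tied to Stat6, Il4ra (-0.69) and Il13ra1 (-0.77) were within 2-fold. Crlf2 had a bound of at least 13.2-fold higher and Il2rg, the chain on which Jak3 works, of at least 6.59-fold lower.

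Of 29 cytokine ligand genes 22 were detected on neither array and 3 were measured, Clcf1 at -1.71, Il27 at -0.85 and Ebi3, the partner chain of Il27, at 0.95. The atopic diathesis signals of Clcf1 (31.0) and Il27 (31.9) and the control signal of Ebi3 (32.7) lay near background. Osm, which acts through gp130, was detected only on the atopic diathesis array. It read 3.20-fold higher there, an observed ratio to its own control signal of 20.7, which was not well above background. Il15 was likewise detected in atopic diathesis only, with a bound of at least 2.40-fold higher. On the control array alone Il6 and Epo were detected, with bounds of at least 1.85- and 1.958-fold lower in atopic diathesis microglia.

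The list of negative regulators and phosphatases had 4 of 11 measured genes lower and 1 higher, with a median of 0.12 that includes the adaptor Sh2b1. Socs7, of the suppressor of cytokine signalling family, read 60.5 in atopic diathesis and 768 in control microglia (-3.63). Pias2, of the protein inhibitors of activated STATs, was at -2.39, and the phosphatases Ptpn11 and Ptpn6 at -1.54 and -1.11. The only gene of the list that was higher, Sh2b1 (840.0 in atopic diathesis and 28.3 in control, 4.93), enhances Jak2 and is no restraint, and its control signal lay near background. Socs3, the feedback inhibitor induced by Stat3, read 11177 in atopic diathesis and 10359 in control microglia (0.14). Of this list 2 genes were above background in atopic diathesis only, Socs2 and Usp18 with bounds under 2-fold, and 2 in control only, Socs4 and Cbl, at least 6.75- and 3.09-fold lower in atopic diathesis microglia. The phosphatase gene Ptpn2 had probes at 2.23 and -1.22, on opposite sides.

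Among partners and adaptors of STATs, 4 of 8 measured genes were lower and none higher, with a median of -1.01. Ncoa1, a coactivator, read 26.3, near background, in atopic diathesis and 478 in control microglia (-4.15). Pdlim2, which promotes breakdown of nuclear STAT proteins, was at -2.14, the importin gene Kpna3 at -1.35 and Nmi, a STAT-binding protein, at -1.32. The atopic diathesis signal of Pdlim2, 33.5, was also near background. On the other side, the importin genes Kpna1 and Kpna2, which carry cargo such as STATs into the nucleus, were above background in atopic diathesis only. Kpna1 was at least 14.2-fold higher, and Kpna2 at least 4.34-fold on the brightest of its 4 probes. Stam2 was likewise at least 3.08-fold higher on the brighter of its 2 probes, while Kpna4 was detected in control only (at least 1.21-fold lower).

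**Figure D4:**
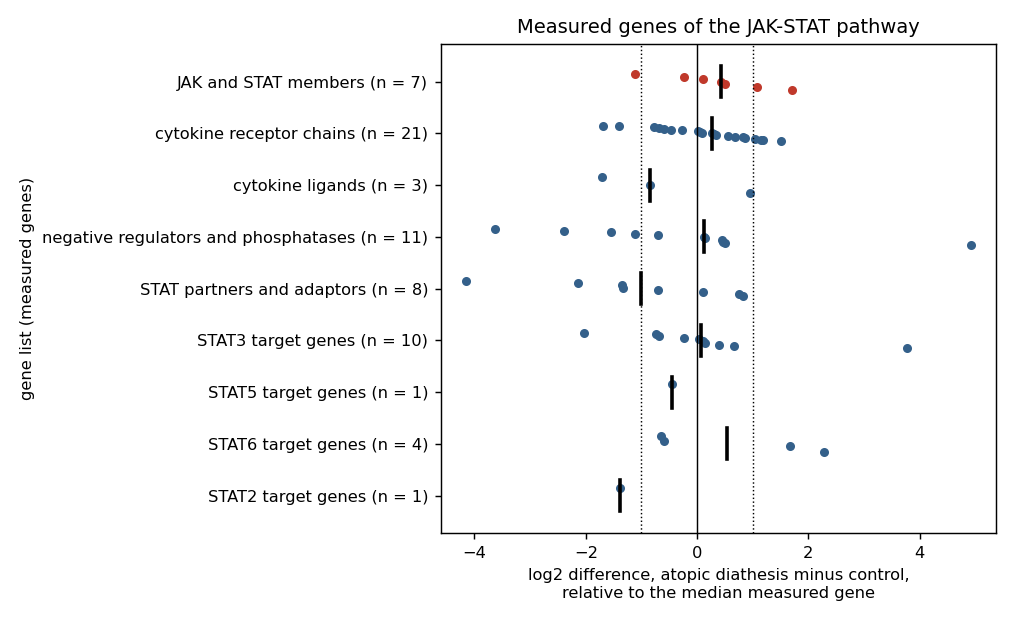
Log2 difference (atopic diathesis minus control, relative to the median measured gene) of each measured gene of the members and of the 8 pathway lists, with list medians as black bars and dotted lines at 2-fold. The member points spread between -1.12 and 1.70, and the widest spread, from -3.63 to 4.93, is that of negative regulators and phosphatases.

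Known target genes of the STATs lay on both sides. Of 10 measured Stat3 targets 8 were within 2-fold, with Bcl6 (3.78) higher, Junb (-2.02) lower, Myc at -0.74 and a median of 0.07. The control signal of Bcl6 (27.0) and the atopic diathesis signal of Junb (28.4) lay near background. Pim1, a target of Stat3 and Stat5, was above background in atopic diathesis only, at least 7.53-fold higher. The one measured Stat5 target, the survival gene Bcl2l1, read -0.44. A further 3, Pim1 and Osm among them, were above background in atopic diathesis only. In control only, 1 was above background, Igf1, at least 10.5-fold lower on the brightest of its 5 probes. For Stat6, 4 of 12 target genes were measured, with Ccl24 (2.29) and Mgl2 (1.68) higher and Klf4 (-0.65) and Irf4 (-0.59) within 2-fold. The other 8 Stat6 targets were detected on neither array, and the control signal of Ccl24, 30.3, lay near background. For Stat2, Ifit3 (-1.39) was the only measured target, with an atopic diathesis signal of 25.3, near background. Of the 10 Stat2 targets 4 were above background in atopic diathesis only and 1 in control only. The first were Ifit1 (at least 6.02-fold higher), Isg15 (1.601), Usp18 (1.37) and Mx1 (1.19), the last 3 with bounds under 2-fold, and the one in control only was Ifi44 (at least 3.36-fold lower). These RNA values of 1 array per group do not show whether any STAT was more or less active. For Stat2, Stat5 and Stat6, few targets were measured besides.

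The sorted cells carried microglial markers. All 10 of the microglia list were well above background on both arrays, at a summed signal of 77317 in atopic diathesis and 82771 in control microglia. None of 7 T and NK cell markers, of 6 monocyte and border macrophage markers or of 4 neutrophil markers with a probe was above background on either array. Of the 4 neuron markers, which summed to 84041 in atopic diathesis and 82174 in control microglia, Snap25 alone was above background, on both arrays. Likewise Gfap was the only one above background among 4 astrocyte markers (sum 113 in atopic diathesis and 109.6 in control), and Pax5 among 4 B cell markers (42.3 in atopic diathesis and 40.6 in control), on both arrays. The 4 oligodendrocyte markers summed to 725 in atopic diathesis and 893 in control, the 4 endothelial ones to 144 in atopic diathesis and 342 in control, and the 4 mast cell ones, of which Mcpt4 was above background in atopic diathesis, to 89.4 in atopic diathesis and 33.5 in control. Their part in the differences of the members was not tested, and fewer cells of a type and less RNA per cell cannot be told apart in such bulk samples.

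The direction of Stat3, Stat5a and Stat5b was the same in all 11 alternatives, while the 2-fold limit was not passed in each. The alternatives reprocess the same pair of arrays, and some of them could not change these values, so they are no replicate check.

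**Figure D5:**
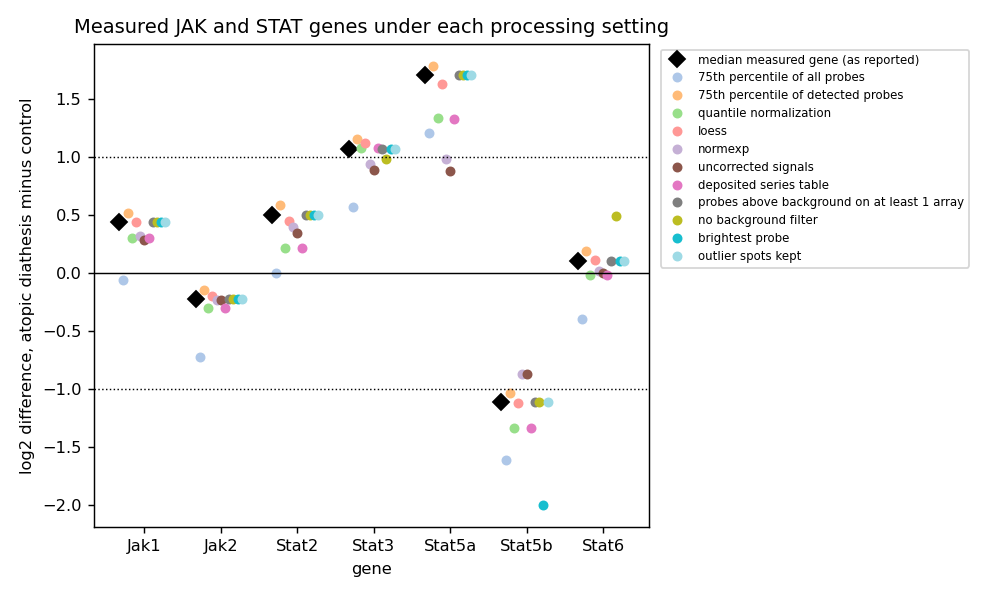
Log2 difference (atopic diathesis minus control) of each of the 7 measured members as reported (black diamonds) and under 11 alternative settings (coloured points), with dotted lines at 2-fold. Stat5b stays below 0 and Stat3 and Stat5a above it at each point, whereas points of Jak1, Stat2 and Stat6 reach or cross 0.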

How the data were processed

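Total RNA of sorted microglia was measured on 1 array per group, both on 1 slide, so slide position cannot be told apart from group. Each deposited scanner file gives the fluorescence intensity of every spot, linear and background-subtracted by Agilent Feature Extraction, of version 10.7.1.1 per the file headers and 9.5.1.1 per the submitters' processing notes. The deposited series table gives intensity by probe, with a median of 6.64 in both columns and equal sorted values, and served as an alternative. Outlier spots were left out, log2 values of spots of 1 probe were averaged, and a probe counted as detected where most spots were well above background; no spot was saturated. Probes above background numbered 15385 (27.6%) on the atopic diathesis array and 13429 (24.1%) on the control array. A gene's value is the mean over probes detected on both arrays, minus the median measured gene. A gene detected on 1 array has a bound, taken on its brightest probe. It is the bright signal over the dim array's lowest detected signal, or over the probe's own signal there if that is higher. In the latter case it is the observed ratio, with no allowance for spot error. Members were taken by the file's gene name; other probes were renamed through RefSeq accessions where these matched (27235 probes). Probe positions are those of the files (mm9); 1 probe's sequence is not reported here. The members, lists and the scale were chosen with earlier results of these data known. Genes named are all members, the 4 most changed measured genes of each list, and those with a bound of at least 2-fold; Il6ra, Ifngr2, Il13ra1, Il6, Epo, Kpna4, Isg15, Usp18, Mx1, Socs2, Socs3, Socs6, Ptpn6 and Ptpn2, and Il4ra among the receptors, were added after their values were seen. The spot error comes from 101 probes printed 10 times and detected on both arrays (SD 0.14 in atopic diathesis and 0.15 in control, on the log2 scale). Alternatives were other scalings, background treatments and filters, the brightest probe and the deposited table. The calculation was tested on simulated data. Python 3.11.15 and limma 3.58.1 (normexp with an offset of 50, quantile, loess with a span of 0.4) were used.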

Additional observations from a re-analysis of the deposited data

How the results depend on the processing

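The members counted as past 2-fold, 3 as reported with 2 higher and 1 lower, fell to 0 (0 higher, 0 lower) with normexp and to 0 (0 higher, 0 lower) with uncorrected signals. Scaling to the 75th percentile of all probes gave 1 higher. Probes above background on at least 1 array gave 2 lower, Tyk2 being the added one, and no background filter gave 1 higher and 2 lower. The 21 pathway list genes past 2-fold became 43 and 48 with these last filters, which admit more genes. Over all genes the 3032 past 2-fold became 1973 with normexp, 1782 with uncorrected signals, and 6870 and 8886 with these filters. Quantile normalization, which gave 1325 higher and 1830 lower over all genes, and the deposited series table, which gave 1320 and 1821, moved Stat5a to 1.34 and 1.33 and Stat5b to -1.34 and -1.34. Stat5a ranged between 0.88 and 1.79, Stat3 between 0.57 and 1.15 and Stat5b between -2.002 and -0.87 over 11 alternatives. Scaling to the 75th percentile of all probes, on which the median measured gene lies at -0.50, lowered each member by that amount, so that Jak1 read -0.06 and Stat6 -0.39. The Tyk2 bound ranged from 1.23 to 2.85. Signals near background limit Tyk2, Jak3, the control value of Stat5a and the dimmer Stat5b probe. No paired analysis was possible because each group holds 1 array.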
